A study of Gallus gallus with 12 samples.

Results

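The cell cycle and DNA replication genes CDK6, MCM3, DSCC1, RRM2 and CCNB1 were followed in the otocyst of chicken embryos, the epithelial vesicle that forms the inner ear. The right ear alone received a plasmid, either one meant to lower Wnt signalling or a control. Whether Wnt signalling fell was not examined here. Each of the 5 genes was taken under the name given to it in the study's tables of changed genes, and each matched 1 transcript out of the 28756 transcripts quantified. The otocysts came from 6 White Leghorn embryos collected at embryonic day 3, 24 h after the right otic cup had been electroporated in ovo at embryonic day 2. In embryos 50, 51 and 52 (DNBCAT) the right otocyst received a Tol2 plasmid coding for Cherry at the membrane and for Xenopus β-catenin shortened at both ends and carrying an HA tag, a dominant negative, and in embryos 60, 61 and 62 (mCherry) it received a Tol2 plasmid coding for the fluorescent protein only. The left otocyst of every embryo was not transfected. Both otocysts of an embryo were cleaned of mesenchyme and sequenced separately, which gave 12 libraries with 13157404 to 16097100 estimated counts. Transfection was mosaic and only well transfected embryos were taken, so a right otocyst mixed cells with and without plasmid. With bulk RNA, fewer cells in a phase of the cycle and less of a transcript in each such cell cannot be told apart.

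The otic epithelium of this stage is a dividing tissue. A cell that commits to a new cycle in G1 does so under D-type cyclins bound to the kinases CDK4 and CDK6. MCM3 is a subunit of the MCM helicase that is loaded on replication origins and opens the DNA ahead of the fork. DSCC1 belongs to a clamp loader that places the PCNA ring on DNA at the fork and helps sister chromatids to stay together. RRM2 is the small subunit of ribonucleotide reductase, the enzyme that makes deoxyribonucleotides, and its level is known to rise in S phase. CCNB1 is a mitotic B-type cyclin that activates CDK1 for entry into mitosis. In the study's tables the human counterpart of the transcript named CCNB1 is given as CCNB2, the sister B-type cyclin. The RefSeq annotation also lists CCNB2 and cycB2 as other names of chicken CCNB1. Both sources thus point to CCNB2, and the name CCNB1 is kept here as the study gives it. CCNB1 is on the study's list of genes changed after DNBCAT, which was drawn from these same libraries. The direction, size and rank of its change here are therefore not independent evidence. CDK6, MCM3, RRM2 and DSCC1 entered those tables through other embryos treated with a Notch inhibitor, which were not analysed here.

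The libraries carried the markers of the labelled tissue. SOX10 lay at 291 to 690 CPM (normalised read counts, with library sizes scaled by the trimmed mean of M values) and SOHO-1 at 181 to 345 CPM. The summed level of 6 otic epithelium markers was 983 to 1235 CPM in DNBCAT left, 707 to 1232 in DNBCAT right, 1208 to 1254 in mCherry left and 1091 to 1231 CPM in mCherry right otocysts. Of the mesenchyme markers, COL1A2 lay at 153 to 310 CPM and LUM at 126 to 286 CPM. Whether they came from mesenchyme left after cleaning was not tested. Of the other mesenchyme markers, DCN lay at 17.1 to 59.3 and ACTA2 at 10.1 to 41.6 CPM. SCX and TAGLN reached at most 3.52 CPM. The right otocyst of embryo 51 stood apart. Its 10 most abundant transcripts took 12.4% of all counts against 4.48% to 5.84% in the others, its scaling factor was 0.77, and its TPM values (the abundance unit of kallisto, per transcript length and per library) were lower than in the left otocyst of the same embryo by 0.56 on the log2 scale at the median of all transcripts. Right-left ratios are therefore given in CPM, with the values without embryo 51, and levels of different genes in TPM.

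In the 6 untransfected left otocysts the mean levels of the 5 transcripts spanned from 15.6 TPM to 443 TPM. RRM2 was the most abundant, at 443 ± 27.5 TPM (SD, n = 6), with the otocysts of embryos 50, 51, 52, 60, 61 and 62 at 454, 479, 453, 401, 422 and 451 TPM. CCNB1 followed at 378 ± 38.0 TPM, with 392, 435, 338, 336, 373 and 396 TPM in the same order. The ranges of RRM2 and CCNB1 overlapped, although RRM2 was the higher of the pair in 6 of 6 otocysts, by 1.10 to 1.34 times.

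DSCC1 held the middle of the order, at 128 ± 14.9 TPM, with 126, 146, 147, 117, 119 and 114 TPM in embryos 50 to 62. MCM3 was lower, at 63.5 ± 15.6 TPM, and ranged from 42.1 TPM in embryo 51 to 82.5 TPM in embryo 52. CDK6 was the lowest, at 15.6 ± 2.26 TPM, between 13.4 TPM in embryo 50 and 19.5 TPM in embryo 60. From CCNB1 down, the ranges of neighbours in the order did not overlap and the order held in each of the 6 otocysts. The position of CDK6 depends on length: its transcript is 14621 nucleotides long, and by CPM, which ignores length, it stood above MCM3, at 148 ± 13.9 against 133 ± 25.3 CPM.

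**Figure D1:**
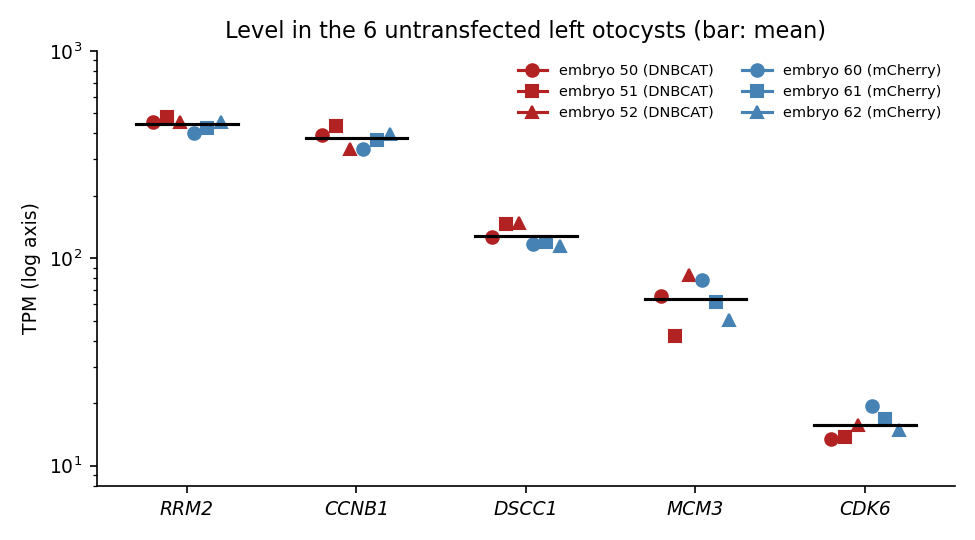
TPM of each transcript in the 6 untransfected left otocysts, on a log axis. Each symbol is 1 otocyst, red for DNBCAT and blue for mCherry embryos, and bars are means. RRM2 and CCNB1 overlap near 400.6 TPM, DSCC1, MCM3 and CDK6 form separate steps below, and MCM3 has the widest relative spread.

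The spread among untransfected otocysts differed between the genes. The coefficient of variation was 6.21% for RRM2, 10.0% for CCNB1, 11.7% for DSCC1, 14.5% for CDK6 and 24.6% for MCM3, and the median over transcripts of at least 10 TPM was 13.2%. In TPM, MCM3 thus varied more among left otocysts than the median transcript of at least 10 TPM, and RRM2 less. By CPM, RRM2 was at 534 ± 70.6, CDK6 at 148 ± 13.9 and MCM3 at 133 ± 25.3. On that scale CDK6, and not RRM2, had the smallest relative spread of the 5 genes. The smallest count of any of the 5 genes was 1109.2, for MCM3 in the right otocyst of embryo 51, where counting error alone would give a coefficient of variation of 3.00%. Counting error of PCR reads without molecular identifiers is only a lower limit of the technical error.

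MCM3 also stood apart from the other subunits of its helicase that the study's tables name. Subunits not named there were not examined. MCM2, MCM4 and MCM6 lay at 191 ± 17.0, 177 ± 18.4 and 171 ± 14.8 TPM in the left otocysts, with coefficients of variation of 8.90%, 10.4% and 8.64%. Across the 12 otocysts, with each transcript centred on its own mean, MCM2, MCM4 and MCM6 differed from each other by a root mean square of 0.06 to 0.09 on the log2 CPM scale, while MCM3 differed from them by 0.24 to 0.27. The estimated counts of MCM3 were not whole numbers (within 0.01) in any of the 12 libraries, as happens when reads fit more than 1 transcript and are divided between them, whereas those of MCM2, MCM4 and MCM6 were whole in all 12. The part of these shared reads in the level and spread of MCM3 was not tested. Counts of CDK6 were also divided in all 12 libraries and those of CCNB1 and DSCC1 were whole in 5 of 12, whereas those of RRM2 were whole in all 12.

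Whether the dominant-negative β-catenin changed these genes was asked by comparing the right with the left otocyst of the same embryo. CCNB1 showed the largest right-left difference of the 5 genes, with a right otocyst 1.34 times the left one after DNBCAT, and RRM2 followed at 1.20 times. CDK6 was 1.10 and DSCC1 1.05 times higher on average, and MCM3 was at 0.92 times the left level. In edgeR's quasi-likelihood test, which paired the otocysts by embryo and adjusted p over 19408 transcripts (Benjamini-Hochberg), none of the 5 passed an adjusted p of 0.05, and neither did any other transcript (0%). At an unadjusted p under 0.05 edgeR gave 1204 transcripts (6.20%), of which CCNB1 and RRM2 were among the 5 genes. DESeq2's Wald test, run as an alternative, called 456 of 16774 transcripts (2.72%), and CCNB1 alone among the 5 genes.

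**Figure D2:**
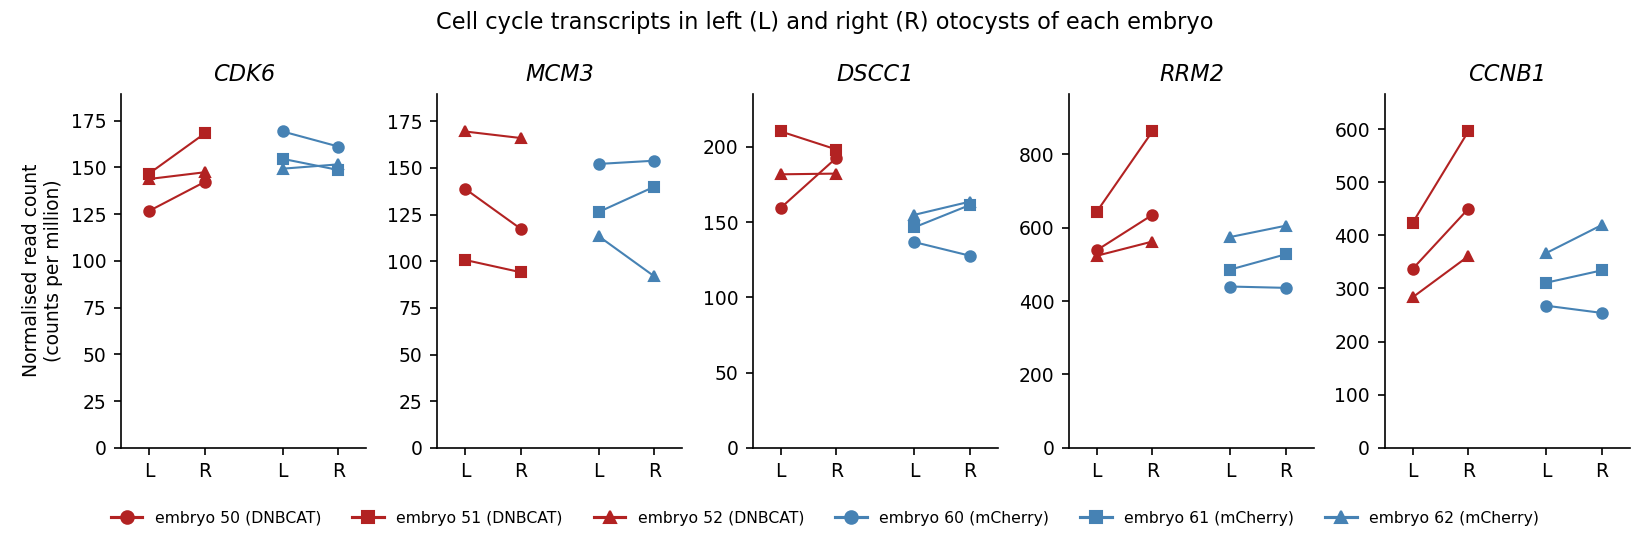
Normalised read count (CPM, axes from 0) of each transcript, with a line from the left (L) to the right (R) otocyst of each embryo, red for DNBCAT and blue for mCherry. All 3 red lines slope up for CCNB1, RRM2 and CDK6 and down for MCM3, and the blue lines of no gene run all in 1 direction.

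CDK6, the G1 kinase, was at 127, 147 and 144 CPM in the left and 142, 168 and 147 CPM in the right otocysts of embryos 50, 51 and 52. The right otocyst was the higher of the pair in 3 of 3 embryos, but the groups overlapped. The log2 fold change was 0.14 (SE 0.07, 95% interval -0.06 to 0.34, edgeR adjusted p = 0.718). Without embryo 51 it was 0.10.

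After mCherry, CDK6 was at 169, 155 and 149 CPM in the left and 161, 149 and 152 CPM in the right otocysts of embryos 60, 61 and 62. Left and right overlapped, with a log2 fold change of -0.03 (SE 0.04, edgeR adjusted p = 0.962). CCND1, the cyclin partner of CDK6 and the most abundant of the other G1 genes, did not overlap between the sides after DNBCAT, at 354 ± 14.4 CPM in left and 406 ± 19.5 CPM in right otocysts (SD, n = 3). Its log2 fold change was 0.20 (SE 0.08, edgeR adjusted p = 0.718), and 8.69% of all transcripts tested did not overlap between the sides.

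MCM3, the helicase subunit, was at 139, 101 and 169 CPM in the left and 117, 94.1 and 166 CPM in the right otocysts of the DNBCAT embryos. The right otocyst was lower in 3 of 3 embryos, as it was for 17.0% of all transcripts tested, and differences between embryos were wider than those between sides. The log2 fold change was -0.12 (SE 0.08, 95% interval -0.34 to 0.10, edgeR adjusted p = 0.730), and it was -0.06 without embryo 50. MCM2, MCM4 and MCM6, the other subunits named in the study's tables, had log2 fold changes of 0.05, -0.01 and 0.01. Each had an SE between 0.08 and 0.11. Of the helicase genes examined here, MCM3 alone was lower in each DNBCAT embryo. Whether it differed from MCM2, MCM4 and MCM6 was not tested.

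In the mCherry embryos MCM3 was at 152, 126 and 113 CPM in the left and 154, 139.9 and 91.9 CPM in the right otocysts. The log2 ratio of right to left was -0.30 in embryo 62 and 0.15 in embryo 61, so right-left differences after the fluorescent protein alone were as wide as those after DNBCAT. The log2 fold change was -0.04 (SE 0.10, edgeR adjusted p = 0.980).

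DSCC1, of the clamp loader, was at 159, 210.1 and 182 CPM in the left and 193, 198 and 182 CPM in the right otocysts of the DNBCAT embryos. Embryo 50 was higher on the right, embryo 51 lower and embryo 52 level, and the groups overlapped. The log2 fold change of 0.07 (SE 0.10, 95% interval -0.20 to 0.34, edgeR adjusted p = 0.856) turned to -0.04 without embryo 50 and was 0.14 without embryo 51.

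In the mCherry embryos DSCC1 was at 137, 147 and 155 CPM in the left and 128, 161 and 164 CPM in the right otocysts, with a log2 fold change of 0.04 (SE 0.06, edgeR adjusted p = 0.962). CHTF8, a partner of DSCC1 in the same clamp loader and named here after its values were seen, was at 23.6, 36.4 and 30.4 CPM in the left and 45.4, 59.6 and 39.9 CPM in the right otocysts of the DNBCAT embryos. The groups of CHTF8 did not overlap, as for 8.69% of all transcripts tested. Its log2 fold change was 0.68 (SE 0.14, edgeR unadjusted p = 0.0069, adjusted p = 0.718), against 0.11 (SE 0.10) after mCherry. DESeq2's Wald test called CHTF8 after DNBCAT, as it did 2.72% of all transcripts. CHTF8 is on the study's list of genes changed after DNBCAT.

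RRM2, of ribonucleotide reductase, was at 538, 643 and 523 CPM in the left and 635, 862 and 562 CPM in the right otocysts of the DNBCAT embryos. All 3 right otocysts were higher than their left counterparts, by 0.24, 0.42 and 0.10 on the log2 scale, and the groups overlapped. The log2 fold change was 0.26 (SE 0.09, 95% interval 0.0035 to 0.51, edgeR adjusted p = 0.718). Without embryo 51, which had the widest difference, it was 0.17.

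In the mCherry embryos RRM2 was at 439.6, 486 and 575 CPM in the left and 436, 528 and 605 CPM in the right otocysts. The sides differed by -0.01, 0.12 and 0.08 on the log2 scale, and the log2 fold change was 0.07 (SE 0.04, edgeR adjusted p = 0.960). TYMS, which makes thymidylate, and DCTD, which supplies the deoxyuridylate it uses, belong with RRM2 to nucleotide supply. Their log2 fold changes after DNBCAT were 0.28 (SE 0.09) and 0.24 (SE 0.07), against 0.03 and 0.0041 after mCherry. Both were higher on the right in 3 of 3 DNBCAT embryos. So were 16.1% of all transcripts and 2148 of the 9085 of at least 10 TPM in the left otocysts, where both lie. Neither passed edgeR's adjustment (adjusted p = 0.718 for both after DNBCAT), and DESeq2's Wald test called DCTD (adjusted p = 0.0232) and not TYMS (adjusted p = 0.0922).

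CCNB1, the mitotic cyclin, was at 337, 423 and 283 CPM in the left and 449.9, 596 and 361 CPM in the right otocysts of the DNBCAT embryos. Each right otocyst exceeded its own left counterpart by a similar amount, 0.42, 0.49 and 0.35 on the log2 scale, while the 2 groups overlapped because the embryos differed in level. The log2 fold change was 0.42 (SE 0.08, 95% interval 0.22 to 0.63, edgeR unadjusted p = 0.0039, adjusted p = 0.718), and it ranked 55 of 19408 transcripts by p. DESeq2's Wald test gave 0.44 with an adjusted p of 1.42e-06. Without embryo 51 the edgeR value was 0.39. Size and rank are no independent evidence, since the study's list that names CCNB1 came from these same libraries.

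In the mCherry embryos CCNB1 was at 268, 311 and 367 CPM in the left and 254, 334 and 419.5 CPM in the right otocysts. The right otocyst was lower in embryo 60 and higher in embryos 61 and 62, and the log2 fold change was 0.08 (SE 0.06, edgeR adjusted p = 0.960). Every right-left ratio of CCNB1 after DNBCAT was above the highest ratio after mCherry, 0.19. CDK6 was separated too, but narrowly, with a lowest ratio of 0.04 after DNBCAT and a highest of 0.02 after mCherry. The SE of its log2 fold change after DNBCAT was 0.07. The share of all transcripts with such a separation was not counted, so how unusual it is cannot be said. In the mCherry comparison edgeR called none of 19754 transcripts (0%), with 740 (3.75%) at an unadjusted p under 0.05, none of them from the 5 genes, and DESeq2 called 84 (0.425%), also none of the 5.

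Being higher on the right in each DNBCAT embryo, as CCNB1, RRM2 and CDK6 were, applied to 16.1% of all transcripts tested. The share was larger among the 9085 transcripts of at least 10 TPM in the left otocysts, where all 5 genes lie. Of these, 2148 were higher and 1374 lower in each DNBCAT embryo. After mCherry none of the 5 genes was higher in each embryo, against 13.1% of all transcripts and 1412 of 9084 from 10 TPM up.

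**Figure D3:**
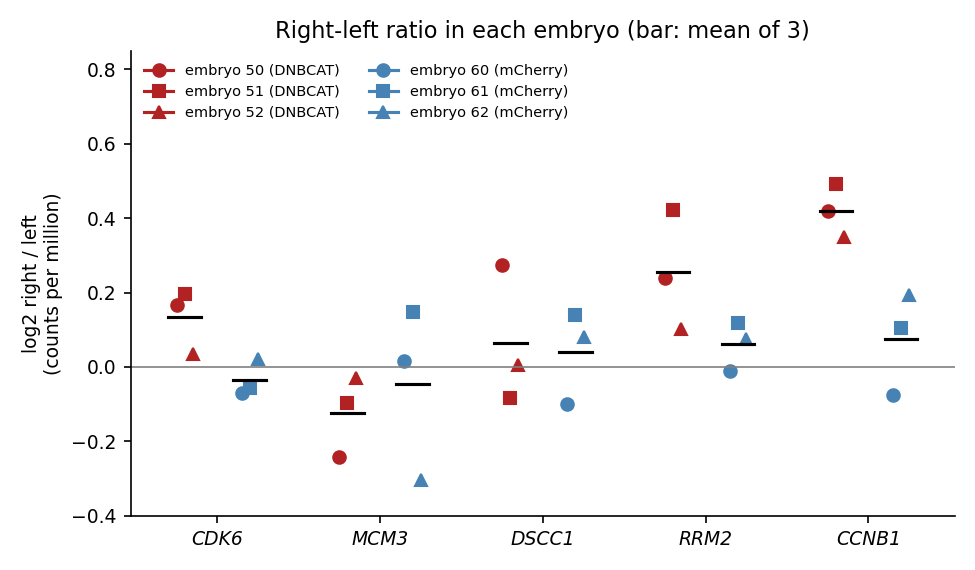
log2 ratio of right to left otocyst in CPM for each embryo, with 3 DNBCAT embryos (red), 3 mCherry embryos (blue) and bars for the mean of 3. CCNB1 lies at 0.35 to 0.49 after DNBCAT and -0.08 to 0.19 after mCherry, and the symbols of the other genes are closer together or overlap.

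The scale mattered for the size of the differences and, for RRM2, CDK6 and DSCC1, for their direction. On log2(TPM + 1) with limma, the DNBCAT fold changes were 0.13 for CCNB1, -0.03 for RRM2, -0.14 for CDK6, -0.22 for DSCC1 and -0.40 for MCM3, but the median of all transcripts stood at -0.23 on that scale. Relative to that median they were 0.36, 0.20, 0.09, 0.01 and -0.17, in the same order of genes as in CPM. In limma on log2(TPM + 1), CCNB1 had an unadjusted p of 0.450 and an adjusted p of 0.779. Embryo 51 carried the shift: by TPM its right otocyst had less of all 5 transcripts than its left one, with CCNB1 at 365 against 435 TPM. Relative to the median of all transcripts in that embryo, CCNB1 was higher on the right by 0.30, RRM2 by 0.24 and CDK6 by 0.02, and DSCC1 and MCM3 were lower, at -0.27 and -0.28.

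Whether the right-left difference after DNBCAT exceeded that after mCherry was tested as an interaction over all 12 libraries. The difference of the log2 fold changes was 0.34 for CCNB1 (SE 0.09, 95% interval 0.12 to 0.57, edgeR unadjusted p = 0.00994, adjusted p = 0.935). It was 0.19 for RRM2 (95% interval -0.06 to 0.44) and 0.17 for CDK6 (95% interval -0.02 to 0.35). For DSCC1 it was 0.02 (95% interval -0.27 to 0.31) and for MCM3 -0.08 (95% interval -0.40 to 0.24). The interval of CCNB1 alone lay above 0. Of the 5 genes CCNB1 is also the only one on the study's list drawn from these DNBCAT libraries, so this is not independent evidence. After adjustment over 19298 transcripts edgeR called none (0%), with 842 (4.36%) at an unadjusted p under 0.05. DESeq2 called 64 (0.332%) and none of the 5 genes, with CCNB1 at an adjusted p of 0.112. With limma on log2(TPM + 1) the difference for CCNB1 was 0.098 (limma unadjusted p = 0.600), or 0.29 relative to the median of all transcripts.

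The surrounding cell cycle was described through 39 other genes (41 transcripts) found by name in the study's tables, which name only genes that changed in at least 1 of its experiments. After DNBCAT, 34 of the 41 had a log2 fold change above 0 and 7 below, against 47.7% above 0 for all transcripts tested, and their median was 0.20 against -0.02. Transcripts of at least 10 TPM in the left otocysts, a class closer in level to most of these genes, were above 0 in 55.7% with a median of 0.03. None of the 41 passed edgeR's adjustment, 14 of those above 0 and 1 of those below had an unadjusted p under 0.05 (6.20% of all transcripts), and DESeq2 called 10 higher and 1 lower (2.72% of all transcripts). From 10 TPM up, 565 of 9085 transcripts were above 0 with an edgeR unadjusted p under 0.05, and 309 below. In that class DESeq2 called 236 higher and 111 lower. Of the 41 transcripts, 8 are on the study's own list for DNBCAT. The remaining 33 had a median of 0.15 with 27 above 0, of which 7 above 0 and 0 below had an edgeR unadjusted p under 0.05, 0 passed the adjustment and DESeq2 called 3, all higher. After mCherry the 41 had a median of 0.03 with 27 above 0 (50.0% for all transcripts, 52.7% from 10 TPM up). The median of the 41 in single embryos was 0.15, 0.26 and 0.13 in embryos 50, 51 and 52 and -0.06, 0.02 and 0.09 in embryos 60, 61 and 62. Without embryo 51 the DNBCAT median was 0.11, and on log2(TPM + 1), where all transcripts shifted down, it was -0.09, or 0.14 relative to the median of all transcripts.

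**Figure D4:**
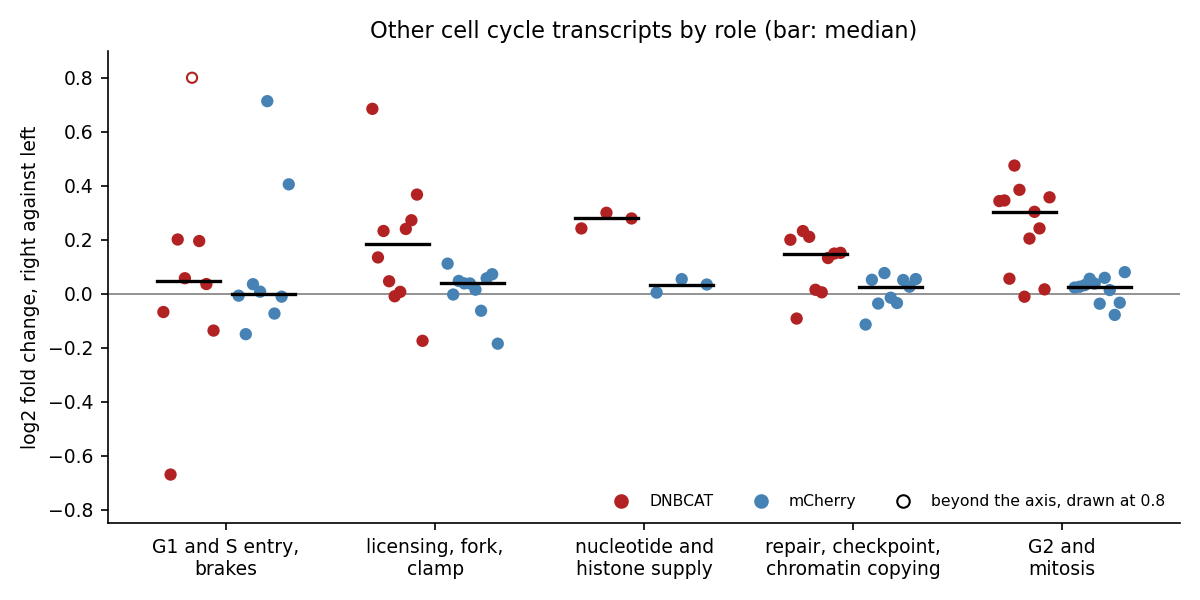
log2 fold change of right against left otocysts for the 41 other cell cycle transcripts, grouped by role, after DNBCAT (red) and mCherry (blue). Bars are medians, and 1 open symbol marks CDKN1A at 2.68, beyond the axis. The DNBCAT medians run from 0.05 in the G1 group to 0.30 in the G2 and mitosis group (0.13 without the 5 genes on the study's list), and the mCherry medians stay between 0.00016 and 0.04.

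By role, the median log2 fold change after DNBCAT was 0.30 for G2 and mitosis, over 11 transcripts of which 10 were above 0. Of these 11, 5 are on the study's list for DNBCAT, and without them the median was 0.13, below that of nucleotide supply (0.28) and close to those of repair (0.15) and of the fork (0.13 outside that list). CDK1, the kinase that CCNB1 activates, had a log2 fold change of 0.47 (SE 0.08), CENPH, a kinetochore protein, 0.38 (SE 0.07) and PBK, a mitotic kinase, 0.36 (SE 0.07). CDC20, an activator of the anaphase-promoting complex, had 0.35 (SE 0.08), AURKA, the Aurora kinase of the spindle poles, 0.34 (SE 0.08), and CKS2, a subunit bound to cyclin-dependent kinases, 0.30 (SE 0.08). Each of these 6 was higher on the right in 3 of 3 DNBCAT embryos. So were 16.1% of all transcripts and 2148 of the 9085 of at least 10 TPM, where these 6 lie. Each had an edgeR adjusted p of 0.718 and was called by DESeq2. CDC20 did not overlap between the sides, at 334 ± 40.7 CPM in left and 423 ± 43.8 CPM in right otocysts (SD, n = 3). The same held for 8.69% of all transcripts.

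The remaining mitotic genes had smaller estimates, and whether they differed from those 6 was not tested. KIF15, a spindle kinesin, had 0.24 (SE 0.11), CDCA2 0.06 (SE 0.07) and NCAPG, a condensin subunit, 0.02 (SE 0.07). The 2 transcripts of CENPX were at -0.01 (SE 0.08) and 0.20 (SE 0.18), the latter through embryo 51 alone. CDK1, CDC20, AURKA, CENPH and PBK are on the study's list for DNBCAT, so the direction and size of these 5 are no independent evidence. Of the 6 mitotic transcripts outside that list 5 were above 0. After mCherry the 11 mitotic transcripts had a median of 0.03, and the 6 named first lay between 0.01 and 0.08.

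Over the 10 transcripts for origin licensing, the fork and the clamp the median was 0.18 after DNBCAT, with 8 above 0, and 0.04 after mCherry. PCNA, the clamp that the DSCC1 loader places on DNA, had a log2 fold change of 0.27 (SE 0.10, edgeR adjusted p = 0.718) and RPA3, a subunit of the protein that coats single-stranded DNA, 0.37 (SE 0.10, edgeR adjusted p = 0.718). Both were higher on the right in 3 of 3 DNBCAT embryos. So were 16.1% of all transcripts and 2148 of the 9085 of at least 10 TPM, where both lie. DESeq2's Wald test called RPA3 (adjusted p = 0.0289) and not PCNA (adjusted p = 0.124). ORC1, of the origin recognition complex, was at 0.24 and GINS1, of the helicase complex at the fork, at 0.23. DTL was at 0.13 and TICRR, which acts in origin firing, at -0.17 (SE 0.14). After mCherry ORC1, GINS1, DTL and TICRR were at -0.06, 0.05, -0.0030 and -0.19 (SE 0.04 for TICRR). TICRR was higher on the right in 1 of 3 DNBCAT and 0 of 3 mCherry embryos. The 3 transcripts for nucleotide and histone supply had a median of 0.28 after DNBCAT and 0.03 after mCherry. The 9 transcripts for repair, checkpoint and chromatin copying had medians of 0.15 and 0.03, with UHRF1, which carries DNA methylation through replication, at 0.15 (SE 0.08) and RBBP8, which trims DNA ends for repair, at 0.13 (SE 0.09) after DNBCAT.

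The G1 genes and brakes on the cycle showed the smallest median, 0.05 over 8 transcripts after DNBCAT, and the widest range. BTG1, an antiproliferative gene and the second most abundant of this group by TPM after CCND1, had a log2 fold change of -0.07 (SE 0.07, edgeR adjusted p = 0.808). The extremes, named here after their values were seen, were CDKN1A, an inhibitor of cyclin-dependent kinases, at 2.68 (SE 0.44) and BTG2, an antiproliferative gene, at -0.67 (SE 0.11). Their edgeR unadjusted p were 0.0028 and 0.0031, each with an edgeR adjusted p of 0.718. DESeq2's Wald test called both, as it did 2.72% of all transcripts. CDKN1A rested on few reads, with 8, 8 and 7 estimated counts in the left and 60, 36.6 and 48 in the right otocysts of the DNBCAT embryos, and 4, 7 and 11 in the left and 8, 13 and 16 in the right otocysts of the mCherry embryos. BTG2 was at 89.5, 71.0 and 68.5 CPM in the left and 52.1, 40.8 and 50.4 CPM in the right otocysts of the DNBCAT embryos. Neither overlapped between the sides after DNBCAT, as for 8.69% of all transcripts, and both are on the study's list for DNBCAT. After mCherry CDKN1A was at 0.71 (SE 0.59), higher on the right in 3 of 3 embryos, as were 13.1% of all transcripts. BTG2 was then at -0.15 (SE 0.09), higher on the right in 1 of 3.

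Marker sums of other cell types were set beside these values. The summed level of 5 neuroblast and neuron markers was lower on the right in 3 of 3 DNBCAT embryos, without overlap. It was 141 to 176 CPM in left and 106 to 137 CPM in right otocysts. Of single transcripts, 17.0% were lower in each DNBCAT embryo and 8.69% did not overlap between the sides. The log2 ratios of this sum were -0.49, -0.41 and -0.07 in embryos 50, 51 and 52. NEUROD1, at a mean of 85.8 CPM in the left otocysts, is in this sum and on the study's list for DNBCAT. The fall is therefore not independent evidence. In mCherry embryos the sum was 156 to 195 CPM on the left and 137 to 201 CPM on the right. Its log2 ratios there were -0.18, 0.05 and -0.36 in embryos 60, 61 and 62. The sum of 6 mesenchyme markers did not move in 1 direction, at 377 to 599.6 CPM in DNBCAT left and 394 to 618 CPM in DNBCAT right otocysts, with log2 ratios of -0.60, -0.04 and 0.71 in embryos 50, 51 and 52. The otic epithelium sum had log2 ratios of 0.17, -0.48 and -0.22 in those embryos. In embryos 50, 51 and 52 CCNB1 was higher on the right by 0.42, 0.49 and 0.35. In embryos 60, 61 and 62 the mesenchyme sum had log2 ratios of -0.13, -0.13 and 0.43, and CCNB1 -0.08, 0.10 and 0.19. The part of these marker sums in the values of CCNB1 and RRM2 was not tested.

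The untransfected left otocysts of the 2 sets of embryos were also compared, to see how far the 5 genes differed between the sets. Each set received 1 plasmid in the right ear, so set and plasmid cannot be told apart, here or in the interaction. DSCC1 was at 184 ± 25.4 CPM in DNBCAT left and 146 ± 9.08 CPM in mCherry left otocysts (SD, n = 3), and the groups did not overlap, as for 7.69% of all transcripts. Its log2 difference was 0.32 (SE 0.12, 95% interval 0.03 to 0.61, edgeR unadjusted p = 0.0347, adjusted p = 0.9999), larger than its right-left difference after either plasmid. CDK6 was lower in the DNBCAT embryos, at 139 ± 10.8 against 158 ± 10.3 CPM, also without overlap, with a log2 difference of -0.19 (SE 0.10, edgeR adjusted p = 0.9999). RRM2 differed by 0.18 (SE 0.13), CCNB1 by 0.13 (SE 0.18) and MCM3 by 0.05 (SE 0.21), and the groups of these 3 genes overlapped. For edgeR 0 of 19647 transcripts passed (0%), 454 (2.31%) had an unadjusted p under 0.05, and DESeq2 called 43 (0.219%), none of them from the 5 genes. Of the 5 genes 4 were above 0, against 48.1% of all transcripts. These left otocysts are the denominators of the right-left ratios, so the comparisons share samples, and in the interaction 4 of the 5 genes were above 0 against 49.4% of all transcripts and 56.5% of those from 10 TPM up.

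The transcripts closest in pattern to each gene across the 12 otocysts were looked up among 830 other named transcripts, by the root mean square difference of centred log2 CPM. Nearest to CCNB1 were TUBA3E, an alpha-tubulin, at 0.06 and CDK1 at 0.07, against a median of 0.47 over all named transcripts. Nearest to RRM2 were TYMS at 0.05 and TUBB4B, a beta-tubulin, at 0.06, with a median of 0.40. AURKA was number 21 and CDC20 number 81 in the order for CCNB1, and PCNA number 141 in that for RRM2. TUBA3E and CDK1 are on the study's list for DNBCAT, and the other transcripts found are not.

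Nearest to MCM3 were SLTM at 0.07 and KDM2B, a histone demethylase, at 0.11, with a median of 0.41. MCM4, the closest of MCM2, MCM4 and MCM6, was only number 96 in the order. Nearest to DSCC1 were YWHAH, a 14-3-3 protein, at 0.09 and TPD52 at 0.10, and CHTF8 was number 311. Nearest to CDK6 were EBF3, a transcription factor, at 0.08 and TCF25 at 0.09, with CCND1 at number 36. CDK6 varied little over the 12 otocysts, with an SD of 0.11 on the log2 scale against 0.35 for CCNB1, so its near neighbours include any transcript that is almost constant. The named transcripts all come from the study's tables of changed genes and the 12 otocysts share 6 embryos, so these distances describe this set only.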

How the data were processed

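RNA was extracted from each otocyst, amplified with the SMART-Seq v4 kit, made into Nextera XT libraries and sequenced as 43 bp paired reads. Per the labels, the authors quantified the reads with kallisto (version not given in the sources used here) against GRCg6a. The authors deposited estimated counts and TPM per transcript for each library, and replicates were not pooled. No strand information was used.

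Estimated counts were rounded and tested with edgeR 4.0.16 (TMM, quasi-likelihood test, R 4.3.3, Benjamini-Hochberg adjustment over all transcripts), after a filter that asked for 5 counts or more in 47% or more of the libraries of a comparison. The embryo was a block, because right and left otocysts came from the same embryo. Deviations from the group means correlated at 0.15 to 0.48 within embryos and at -0.40 to 0.05 between them. Taking off the mean of so small a group by itself lowers the values between embryos, so part of this contrast is built in. DESeq2 1.42.0, limma 3.58.1 on log2 TPM, other filters, scalings and left-out embryos were alternatives, and the TPM values relative to the median of all transcripts were chosen after seeing the data. Scripts were tested on simulated data. Totals of 13157404 to 16097100 counts set the depth.

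Gene names were taken from the study's supplementary tables (846 named transcripts in the files). The study's own fold changes and q-values were not used. The genes and lists were chosen with earlier results of these data known. Other genes named were every gene of the G2 and mitosis list, the 2 with the highest mean TPM in the left otocysts of each other list, any with an adjusted p under 0.05, and the 2 nearest in pattern to each of the 5 genes. MCM2, MCM4 and MCM6, as subunits of the MCM3 helicase, the other fork genes, CHTF8, CDKN1A and BTG2 were named outside this rule, after their values were seen. No sequences or coordinates are given, since the build of the annotation at hand differed.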

Additional observations from a re-analysis of the deposited data

Results flagged for a closer look

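Of 24 transcripts examined, the highest of the 6 left otocysts stood far from the others in TPM for 2 mitotic genes, by Dixon's test at 95%, which chance meets in about 1 of 20 groups. CDC20 was at 429 TPM in the left otocyst of embryo 61, with the other 5 between 311 and 341 TPM. CENPH was at 205 TPM in the left otocyst of embryo 60, with the others between 79.1 and 124 TPM. In CPM neither passed, with CDC20 at 405 CPM against 376 for the next otocyst and CENPH at 240.3 against 168 CPM. In CPM 2 other transcripts stood out, both in the left otocyst of embryo 51, PCNA at 955 against 613 CPM for the next otocyst and DCTD at 306 against 228 CPM. None of CCNB1, CDK6, MCM3, RRM2 and DSCC1 had such an otocyst in TPM or CPM.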

How the results depend on the processing

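The number of transcripts called depended on the test. DESeq2's Wald test called 456 after DNBCAT, 84 after mCherry, 64 for the difference and 43 between left otocysts, where edgeR called 0. After DNBCAT, limma on log2(TPM + 1) called 37 and edgeR with at least 10 counts in every library 1, and for the difference limma called 1 with either pseudocount. Of the 5 genes, the call changed only for CCNB1 after DNBCAT with DESeq2 (0.44). Without the replicate block its log2 fold change was 0.43 (edgeR adjusted p = 0.9999), and the block changed no call of the 5 genes.

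TPM scaling made the differences of CCNB1 smaller and turned the direction of several others. After DNBCAT, limma on log2(TPM + 1) and log2(TPM + 0.1) gave CDK6 -0.14 and -0.15, RRM2 -0.031 and -0.032, and DSCC1 -0.22 and -0.22. For the difference they gave CDK6 -0.074 and -0.082, RRM2 -0.054 and -0.055, and DSCC1 -0.22 and -0.22 (-0.029 once the shift of all transcripts was taken off), and between left otocysts MCM3 -0.026 and -0.027. The median of the 41 other transcripts became -0.087 and -0.089 after DNBCAT, with 10 above 0 under both, and -0.093 and -0.094 for the difference, with 14 above 0. After mCherry 13 were above 0. Among other named genes after DNBCAT the values were CENPX (887 nucleotides) -0.087 and -0.088, KIF15 -0.046 and -0.047, NCAPG -0.27 and -0.27 (-0.041 with the shift taken off), CDCA2 -0.23 and -0.23 (-0.0015 with it taken off), CCND1 -0.088 and -0.089, PCNA -0.018 and -0.018, TYMS -0.012 and -0.012, DCTD -0.048 and -0.048, UHRF1 -0.14 and -0.14, and RBBP8 -0.16 and -0.16. With DESeq2 size factors or DESeq2 the longer CENPX transcript was at 0.0083 and 0.0084. The shift of all transcripts came with the right otocyst of embryo 51.

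Leaving out 1 embryo at a time, DSCC1 ranged from -0.036 (without embryo 50) to 0.14 after DNBCAT, from -0.0083 (without 61) to 0.11 after mCherry and from -0.081 (without 50, and -0.045 without 60) to 0.095 for the difference. MCM3 ranged from -0.14 to 0.082 (without 62) after mCherry, from -0.20 to 0.019 (without 61) for the difference and from -0.13 (without 52, and -0.041 without 62) to 0.23 between left otocysts. CCNB1 between left otocysts ranged from -0.035 (without 51) to 0.26, the shorter CENPX transcript after DNBCAT from -0.047 (without 51) to 0.33 and NCAPG from -0.011 (without 51, and -0.0072 without 50) to 0.056. The median of the 41 after DNBCAT ranged from 0.11 (without 51) to 0.22, and the number above 0 after mCherry from 17 (without 62) to 33. CCNB1 after DNBCAT stayed between 0.39 and 0.45. With 3 embryos a plasmid, differences of the size seen for CDK6, DSCC1 and MCM3 could not be resolved in the main fit from the spread of right-left ratios between embryos. With all 12 libraries in 1 edgeR fit, the unadjusted p after DNBCAT was 0.00064 for CCNB1, 0.012 for RRM2 and 0.047 for CDK6. For MCM3 and DSCC1 it was 0.233 and 0.482. In that fit 2442 of 19408 transcripts had an unadjusted p under 0.05 and 0 passed the adjustment (CCNB1 0.253, RRM2 0.298, CDK6 0.390). RRM2 after DNBCAT did not pass either test, with an adjusted p of 0.718 in edgeR and 0.108 in DESeq2's Wald test. The cause of the changes with scaling was not tested beyond the shift named.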
